A study of Mus musculus with 4 samples.

Results

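The genes described here encode 10 subunits of the SWI/SNF chromatin remodelling complexes: Smarca4, Smarca2, Arid1a, Arid1b, Arid2, Pbrm1, Smarcc1, Smarcc2, Smarcb1 and Smarcd1. Their RUNX1 peaks were selected by position. A peak was assigned to a gene when the transcription start site (TSS) nearest to the peak's edge belonged to that gene, or when the peak lay inside the gene's body. By this rule 14 of the 10494 peaks in the deposited list belonged to the 10 genes, and they fell at 8 of them, while Smarcb1 and Smarcd1 had none. Since the positions in this same list chose the peaks, and the genes were picked with results of the list known, the values below are a description and no test was made of them.

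Binding of RUNX1 was mapped with ChIP-seq, in which an anti-RUNX1 antibody recovers the chromatin fragments the protein sits on and these are sequenced, in ovaries of CD1 mouse embryos (XX gonads, with no genotype or treatment named) at E14.5. Both groups of libraries came from pools of these ovaries: 2 RUNX1 ChIP replicates, each from 80 to 100 ovaries with 20 to 30 μg of chromatin and 10 μl of antibody, and 2 input replicates of sheared chromatin that was not precipitated. The authors called peaks once, on the merged ChIP replicates, so that each peak has 1 fold over background and 1 p-value and no value per replicate. The spread between replicates is therefore unknown for every peak, and a pool of whole ovaries does not tell which cell type carried a peak.

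SWI/SNF complexes use the energy of ATP to slide or evict nucleosomes and so change the access of transcription factors to DNA. Each complex holds a single ATPase, either SMARCA4 (BRG1) or SMARCA2 (BRM), together with core SMARCC and SMARCD proteins and, in canonical BAF and PBAF, SMARCB1. Further subunits set the type of complex: ARID1A or ARID1B in canonical BAF, and ARID2 with PBRM1 in PBAF. In the fetal ovary RUNX1 is made by the supporting cells that give rise to granulosa cells, and it binds DNA through its Runt domain at a short core that is searched for here as TGTGGT or TGCGGT on either strand.

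The sequences of the 5 peaks on which the description turns most, and of the RUNX core at Pbrm1, are given first. Arid1a peak 2 and Arid2 peak 3 had the highest folds and hold RUNX cores, Smarcc2 peak 1 and Arid2 peak 1 came next by fold and hold none, and Arid2 peak 4 is the intronic peak with a core close to its midpoint. All are read 5′ to 3′ on the forward strand of mm10, and capitals mark a RUNX core (ACCACA is TGTGGT read on the other strand). The positions are chr4:133752854-133753153 for Arid1a peak 2, chr15:96287695-96287967 for the stretch of Arid2 peak 3 from the start codon on, chr10:128458843-128459142 for Smarcc2 peak 1, chr15:96285350-96285649 for Arid2 peak 1, chr15:96367785-96368084 for Arid2 peak 4, and chr14:31019008-31019037 for the core of Pbrm1 peak 1 with 12 bases to either side.
Arid1a peak 2: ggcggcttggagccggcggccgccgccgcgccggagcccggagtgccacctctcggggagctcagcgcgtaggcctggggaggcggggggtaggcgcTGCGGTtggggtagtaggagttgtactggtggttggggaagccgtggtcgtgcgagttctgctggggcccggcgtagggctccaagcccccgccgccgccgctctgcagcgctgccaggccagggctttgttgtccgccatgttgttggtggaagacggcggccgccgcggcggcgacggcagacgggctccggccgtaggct
Arid2 peak 3: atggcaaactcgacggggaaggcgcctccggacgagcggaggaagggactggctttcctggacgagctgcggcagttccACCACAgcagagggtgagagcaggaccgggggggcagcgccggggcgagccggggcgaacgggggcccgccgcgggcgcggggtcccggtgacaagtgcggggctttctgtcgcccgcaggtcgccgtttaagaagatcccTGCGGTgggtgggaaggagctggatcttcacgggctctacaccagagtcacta
Smarcc2 peak 1: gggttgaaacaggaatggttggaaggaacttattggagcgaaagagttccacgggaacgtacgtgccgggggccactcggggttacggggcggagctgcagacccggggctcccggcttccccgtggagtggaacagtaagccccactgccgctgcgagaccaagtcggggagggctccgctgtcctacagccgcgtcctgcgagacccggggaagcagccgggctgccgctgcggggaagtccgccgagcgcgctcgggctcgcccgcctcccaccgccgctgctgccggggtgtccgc
Arid2 peak 1: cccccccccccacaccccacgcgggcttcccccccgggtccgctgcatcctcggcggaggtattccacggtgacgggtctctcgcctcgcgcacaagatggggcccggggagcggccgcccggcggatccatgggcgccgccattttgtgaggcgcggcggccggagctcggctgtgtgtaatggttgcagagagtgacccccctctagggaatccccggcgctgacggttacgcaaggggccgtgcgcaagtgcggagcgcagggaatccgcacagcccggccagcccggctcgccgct
Arid2 peak 4: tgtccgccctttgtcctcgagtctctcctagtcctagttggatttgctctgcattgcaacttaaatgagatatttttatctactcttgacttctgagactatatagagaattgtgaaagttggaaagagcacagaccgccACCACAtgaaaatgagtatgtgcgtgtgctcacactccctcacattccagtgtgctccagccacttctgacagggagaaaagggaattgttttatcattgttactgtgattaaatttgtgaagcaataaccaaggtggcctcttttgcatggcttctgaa
Pbrm1 peak 1 core: gcgaactggaacTGCGGTtcaacgtcacgc

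At gene level, 8 of the 10 SWI/SNF genes (80.0%) had a RUNX1 peak. By the same rule a peak was found at 36.6% of all 26180 genes of the curated RefSeq models and at 40.8% of the 21000 protein-coding genes. The rule also counts peaks along the whole gene body, but the nearest TSS alone gave the same 8 genes and the same 14 peaks. The genes differ in size, from 11.7 kb (Smarcd1) to 353 kb (Arid1b), and a link of size with peaks was not tested. The genes without a peak were the shortest of the 10, Smarcd1 and Smarcb1 (24.8 kb), followed by Smarcc2 (31.4 kb), which had 1.

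The strength of each peak is given as the fold over background that the authors' caller wrote, a ratio whose background (input or the surrounding chromatin) is not named in the list. The 14 folds ran from 4.07 to 22.83 with a median of 6.53, and the 95% order-statistic interval of this median, 5.16 to 14.19, covers the spread among the peaks and not the error of any peak. The whole list had a median of 6.41, quartiles of 5.02 and 8.89 and a range of 4.01 to 358.22. As a group the SWI/SNF peaks were thus of ordinary strength: 8 lay above and 6 below the median of all peaks. The peaks above the upper quartile were 4 (28.6%, against 24.8% of all peaks), at Arid1a, Arid2 (2 peaks) and Smarcc2, and 2 peaks, at Arid2 and Smarcc1, were under the lower quartile.

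**Figure D1:**
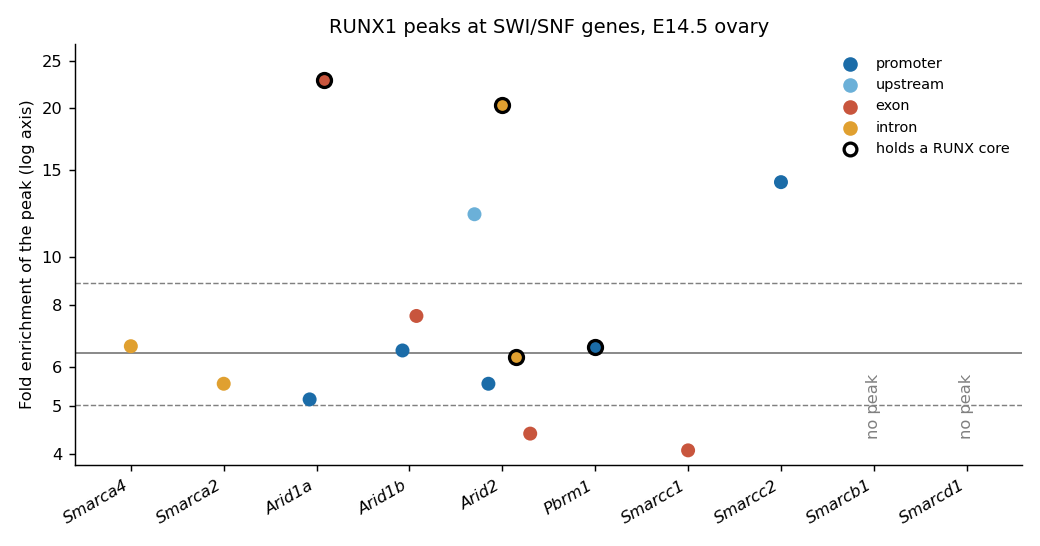
Fold of each of the 14 RUNX1 peaks (log axis) at the 10 SWI/SNF genes, colored by where the peak midpoint lies, with a black ring where the peak holds a RUNX core; the solid line is the median of all peaks (6.41) and the dashed lines are their quartiles (5.02 and 8.89). Points have no error bars because the list holds 1 value per peak. Arid1a (22.83), Arid2 (20.36 and 12.22) and Smarcc2 (14.19) lie above the upper dashed line, and Smarcb1 and Smarcd1 have no peak.

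The ATPase genes each had 1 peak of middling strength in intron 1. At Smarca4 (chr9:21616169-21704230, plus strand), whose product BRG1 is the motor of most SWI/SNF complexes of the early embryo, the peak at chr9:21616444-21616743 had a fold of 6.61 (caller p-value 1.72e-24), above 52.3% of all peaks. Its near edge was 275 bp downstream of the TSS. At Smarca2 (chr19:26605160-26778321, plus strand), which encodes the alternative motor BRM, the peak at chr19:26606373-26606672 had a fold of 5.55 (caller p-value 8.30e-16), above 33.8% of all peaks. It lay 1213 bp downstream of the first TSS and 141493 bp from the next of the gene's 3 annotated TSSs, so that it sat at the start of the long transcript. Neither ATPase peak holds a RUNX core or any other consensus site that was searched.

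Arid1a and Arid1b encode the large DNA-binding subunits that exclude each other in canonical BAF, and both carried a pair of peaks on either side of a TSS. Arid1a is on the minus strand (chr4:133679008-133756769). Its peak 2 (chr4:133752854-133753153) had the highest fold of the 14, 22.83 with a caller p-value of 8.58e-37. This ranked 217 of the 10494 peaks, above 97.9% of them. Its 300 bases are all coding sequence of exon 1 of the transcript that starts at position 133753985, while the transcript that starts at 133756769 has its intron 1 there. The TGCGGT core in the printed sequence lies 50 bp from the peak's midpoint and 1031 bp downstream of that TSS. Arid1a peak 1 (chr4:133754263-133754562), 1109 bp away on the upstream side of the same TSS, had a fold of 5.16 (caller p-value 5.81e-16) and no core. The fold of peak 2 was 4.42 times that of peak 1, a ratio with no replicate error. Peak 1 also lies in intron 1 of the longer transcript, with its midpoint 2357 bp downstream of the other TSS.

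Arid1b (chr17:4995074-5347656, plus strand) showed the same arrangement with less contrast. Its peak 1 (chr17:4994219-4994518) ended 556 bp upstream of the TSS with a fold of 6.48 (caller p-value 3.21e-14). Peak 2 (chr17:4995237-4995536) began 163 bp downstream with a fold of 7.61 (caller p-value 1.66e-20), 718 bp from peak 1. As at Arid1a, the downstream peak had the higher fold, here by a ratio of only 1.17, again with no replicate error. The 300 bases of peak 2 are all coding sequence of exon 1. Neither Arid1b peak holds a RUNX core, although a core is present in the gap between them, in the stretch of 250 bases upstream to 50 downstream of the TSS.

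Arid2, which encodes the ARID subunit of PBAF, had 5 peaks, the most of the 10 genes. Among protein-coding genes with a peak, 17.9% had at least 2 and 0.280% (24 genes) had at least 5. The gene lies at chr15:96287522-96405463 on the plus strand. Of the peaks, 3 were spread over the stretch around the TSS and 2 lay far inside the gene, and their folds differed from 4.40 to 20.36.

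Arid2 peak 3 (chr15:96287668-96287967) had a fold of 20.36 (caller p-value 1.98e-31), rank 295 of the list and above 97.0% of it. It begins 146 bp downstream of the TSS and spans the end of exon 1, the whole of intron 1, which is 107 bp long, and the start of exon 2, with 166 coding bases in all. It was the only one of the 14 peaks with more than 1 RUNX core: TGTGGT on the minus strand in the coding part of exon 1, 41 bp to the left of the midpoint, and TGCGGT on the plus strand in the coding part of exon 2, 100 bp to the right. Both are in capitals in the printed sequence. At least 2 cores were found in 8.26% of all peaks.

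Upstream of the Arid2 TSS, peak 2 (chr15:96286548-96286847) had a fold of 5.55 (caller p-value 5.45e-17) at 675 bp. Peak 1 (chr15:96285350-96285649) had a fold of 12.22 (caller p-value 1.46e-24) at 1873 bp, above 88.5% of all peaks. Folds along the 5′ end of Arid2 were therefore high, low and high again from left to right, with gaps of 898 and 820 bp between neighbouring peaks. Neither upstream peak holds a core, and the printed peak 1 is a GC-rich sequence (72.7% G or C).

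Inside the gene, peak 4 (chr15:96367785-96368084) had its place in intron 12, at 80263 bp downstream of the TSS. Its fold was 6.29 with a caller p-value of 4.80e-09. It differed from the other peaks in composition: it is 42.7% G or C, the lowest of the 14, whose median was 69.7% and highest 74.0%, against medians of 66.3% over all peaks and 68.0% over peaks within 1 kb of a TSS. Its TGTGGT core, on the minus strand, is 7 bp from the midpoint, the closest of the 5 cores. The peak also holds GATA sites 72 bp to the left and 84 bp to the right of the midpoint. Arid2 peak 5 (chr15:96371332-96371631), 3247 bp further on, lay wholly in coding sequence of exon 15, which is 2843 bp long, with a fold of 4.40 (caller p-value 1.66e-07) and no core. Its GC content was 53.3%. These were the only SWI/SNF peaks more than 10 kb from a TSS.

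**Figure D2:**
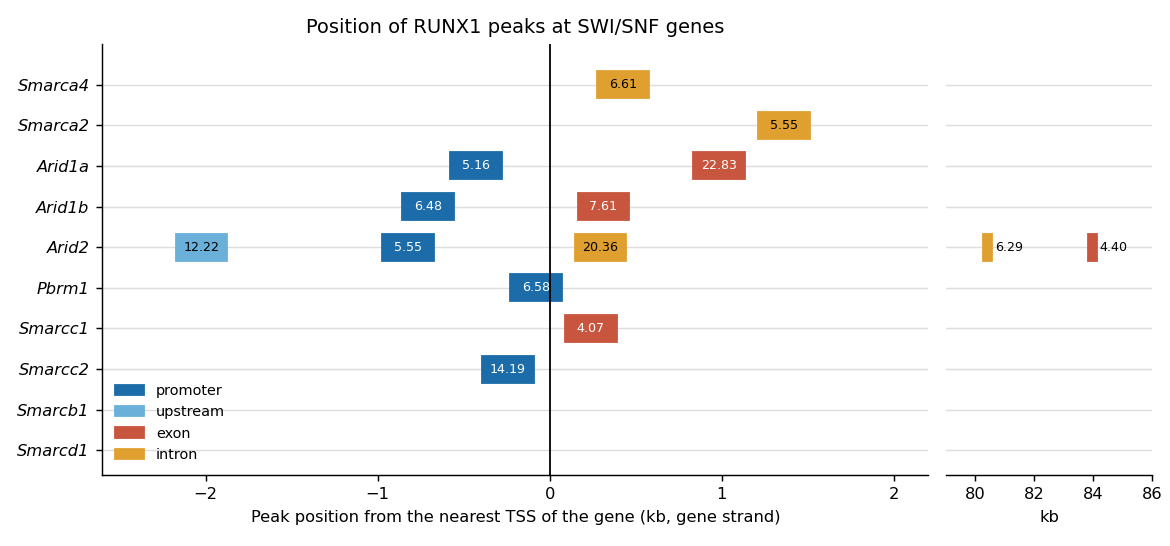
Position of the 14 RUNX1 peaks along each SWI/SNF gene, in kb from the nearest TSS of the gene and on the gene's strand (negative is upstream); each bar is a 300 bp peak drawn to scale, colored by context and marked with its fold, and the right panel uses another scale for the inner Arid2 peaks. Peaks fall on both sides of the TSS at Arid1a, Arid1b and Arid2. The peak just downstream of it has the highest fold of each of these genes (22.83, 7.61 and 20.36, with no replicate error). The peak of Pbrm1 alone crosses the TSS.

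Pbrm1 encodes polybromo, the PBAF subunit that reads acetylated histones through its row of bromodomains. Its peak (chr14:31018909-31019208) covered the TSS of the gene (chr14:31019138-31121592, plus strand), the single case among the 14, where 34.2% of all peaks on assembled chromosomes cover a TSS. The same peak covered the TSS of Gnl3, a nucleolar GTPase gene that starts on the opposite strand 7 bp away, and the peak cannot be given to either gene alone. Its fold was 6.58, above 51.8% of all peaks, with a caller p-value of 9.20e-31. The core in the printed window, TGCGGT, lies 36 bp from the midpoint and 115 bp upstream of the Pbrm1 TSS, in exon 1 of Gnl3.

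Pbrm1 also shows that fold and p-value did not order the peaks alike. Arid1b peak 1 had nearly the same fold (6.48) with a p-value of 3.21e-14, and Arid2 peak 1 had a higher fold (12.22) with a larger p-value (1.46e-24). The number of reads behind each peak is not part of the list, so how precise each fold is cannot be told from it.

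Among the genes of the common core, Smarcc2 and Smarcc1 encode the BAF170 and BAF155 scaffold proteins. The folds of their peaks lay above 92.1% and 1.17% of all peaks. The Smarcc2 peak (chr10:128458843-128459142) ended 94 bp upstream of the TSS of the gene (chr10:128459236-128490591, plus strand), with a fold of 14.19 (caller p-value 2.37e-36), above 92.1% of all peaks. As its printed sequence shows, it holds no RUNX core. It does hold a TEAD site (AGGAATG, 137 bp to the left of the midpoint) and an NFY site (CCAAT on the minus strand, 117 bp to the left). The start of the microRNA gene Mir8105 is 163 bp from this peak. The Smarcc1 peak (chr9:110132113-110132412), at a gene spanning chr9:110132024-110240178 on the plus strand, had a fold of 4.07 (caller p-value 6.82e-08), above 1.17% of all peaks and close to the 4.01 at which the list stops. It began 89 bp downstream of the TSS, and 192 of its bases are coding sequence of exon 1.

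No peak fell at the remaining core genes. For Smarcb1 (chr10:75896769-75921614, minus strand), which encodes the SNF5 subunit that contacts the nucleosome, the nearest peak (fold 5.14) was 83970 bp away and belonged to Gstt2 by the rule. For Smarcd1 (chr15:99702287-99713995, plus strand), which encodes the BAF60A subunit through which transcription factors contact the complex, the nearest peak was strong, with a fold of 28.03, but lay 23040 bp from its TSS and covered the TSS of Cox14. A gene without a peak is one where the caller and filter kept none at this depth, and weaker binding there is not excluded.

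Considered together, 10 of the 14 peaks lay within 1 kb of a TSS, where 76.0% of all peaks do. By midpoint, 8 were downstream and 6 upstream of the TSS. Of the midpoints, 5 fell in a promoter (up to 1 kb upstream of a TSS), 4 in an exon, 4 in an intron and 1 further upstream. The shares of all peaks by side of the TSS and by context were not counted. Nothing particular to these genes is therefore read from either split. At least 1 coding base was contained in 6 of the 14 peaks (42.9%), at Arid1a, Arid1b, Arid2 (2 peaks), Smarcc1 and the shared start of Pbrm1 and Gnl3 (13 bases), beside 32.6% of all peaks.

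Ordered by their strongest nearest peak among the 9060 genes nearest to any peak, Arid1a ranked 228, Arid2 308 and Smarcc2 808. The others followed at 3540 (Arid1b), 4634 (Smarca4), 4687 (Pbrm1), 5995 (Smarca2) and 8907 (Smarcc1). Smarca4 and Pbrm1, at folds of 6.61 and 6.58, were neighbours in the order of the SWI/SNF genes, and without replicate values no pair of genes can be said to differ beyond error. Genes close to Arid1a in this order included Zfp703 (23.01) and Gna11 (22.89) above it. Dhrs3, Rgs10 and St3gal3 shared its fold of 22.83. This likeness is in the fold of 1 peak only.

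RUNX cores were found in 4 of the 14 peaks (28.6%, exact 95% interval 8.39 to 58.1%), those of Arid1a, Arid2 (peaks 3 and 4) and Pbrm1. The share was 39.9% over all peaks, 34.2% over all peaks within 1 kb of a TSS, and 22.7% (5 of 22) in windows of 300 bp lying 1 kb to either side of the SWI/SNF peaks. The interval covers counting error of 14 peaks only and counts them as independent, and no difference between these shares was tested. By form, TGCGGT occurred in 3 peaks (21.4%, against 23.7% of all peaks) and TGTGGT in 2 (14.3%, against 19.5%). The 4 peaks with a core had folds of 6.29, 6.58, 20.36 and 22.83, with no peak near their median of 13.5. The 10 without had folds of 4.07 to 14.19 (median 6.02), and the ranges overlapped. The same split was not made over all peaks.

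**Figure D3:**
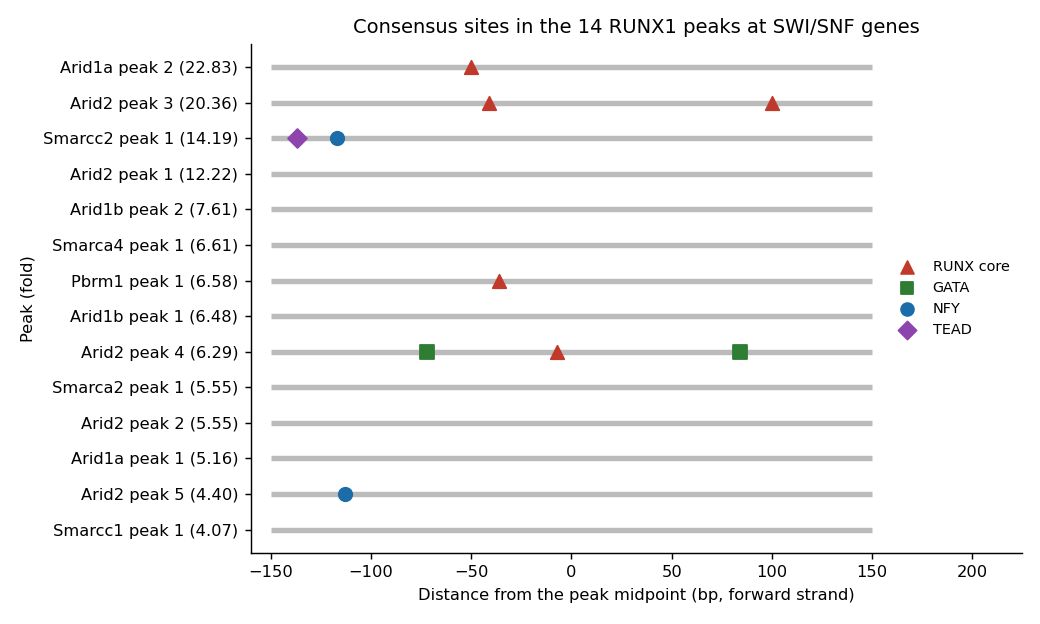
Consensus sites in the 14 RUNX1 peaks at SWI/SNF genes, in bp from the peak midpoint on the forward strand; grey bars are the peaks, ordered by fold (in brackets), and symbols are matches to the RUNX core, GATA, NFY and TEAD sites. The 5 RUNX cores lie in 4 peaks, all from 50 bp left to 100 bp right of the midpoint, and 8 of the 14 bars are bare.

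Other consensus sites were counted in the same way, on both strands. TEAD (AGGAATG or GGGAATG) matched 1 peak (7.14%), where 7.06% of all peaks and 18.2% of the 22 neighbouring windows held it. The site of NFY (CCAAT) matched 2 peaks (14.3%), beside 23.5% of all peaks and 36.4% of the neighbouring windows. Sites of the GATA factors (AGATAA or TGATAA) matched 1 peak (7.14%), beside 8.33% of all peaks and 27.3% of the windows. ETS (CCGGAAGT), forkhead (TATTTAC or TGTTTAC), NR5A (CAAGGCCA or CAAGGTCA) and CTCF sites matched none of the 14 (exact 95% interval up to 23.2%). This interval counts the peaks as independent, although 3 of the genes had at least 2 peaks. Among all peaks 4.66%, 3.24%, 4.42% and 1.35% held ETS, forkhead, NR5A and CTCF sites. Of the neighbouring windows 18.2% held a forkhead site and none held the others. No site of one kind overlapped a site of another in these peaks, and a match to a consensus is a property of the letters and not a measure of binding.

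The stretch from 250 bases upstream to 50 downstream of the TSS, taken from RefSeq on the same build, was at hand for 9 of the genes (10 sequences). A peak overlapped 2 of the 10, those of Pbrm1 (by 279 bases) and Smarcc2 (by 157 bases), beside 16.3% of the 32851 such sequences genome-wide. A RUNX core was present in 2 of the 10, at Arid1b and Pbrm1, compared with 22.4% genome-wide. At Pbrm1 it is the core printed above.

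For comparison, 19 further genes of SWI/SNF subunits were examined by the same rule. Of these, 12 (63.2%, beside 40.8% of protein-coding genes) had a peak, 15 peaks in all. The highest folds were at Bcl7b (12.96), Dpf3 (11.11), a PHD-finger subunit gene, and Bcl7c (10.41), whose peak was nearer to Mir762. Actb, the gene of the actin subunit, had peaks of 8.23, 5.13 and 4.26, the last 22315 bp from its TSS. Brd7, a bromodomain gene of PBAF, had peaks of 7.10 and 6.66. The others lay between 4.32 and 6.86: Ss18l1 (6.86, in the promoter of Psma7), Actl6a (6.84), Smarce1 (6.71), Bicral (6.61, 25773 bp from its TSS), Ss18 (5.98), Bicra (5.02, 10117 bp from its TSS) and Bcl7a (4.32, nearer to Gm15860). No peak was found at Smarcd2, Smarcd3, Actl6b, Dpf1, Dpf2, Phf10 or Brd9. None of the 12 reached the folds of Arid1a, Arid2 or Smarcc2.

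The median of the strongest fold per gene was 7.11 over the 8 genes with a peak, 6.85 over the 12 further subunit genes, and 6.71 (quartiles 5.18 and 9.46) over all protein-coding genes with a peak. Other remodeller families had shares with a peak of 76.9% (10 of 13 ISWI genes), 68.4% (13 of 19 CHD and NuRD genes) and 55.6% (10 of 18 INO80, SRCAP and TIP60 genes). Their medians of strongest fold were 9.76, 8.15 and 10.5, and their highest were Rbbp4 (14.81), Mta2 (20.52) and Ino80 (28.14). By the same rule 36.6% of all genes and 40.8% of protein-coding genes had a peak, below the share of each remodeller list. The lists are short and were chosen with earlier results known. No difference between the lists, or from all genes, was tested.

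**Figure D4:**
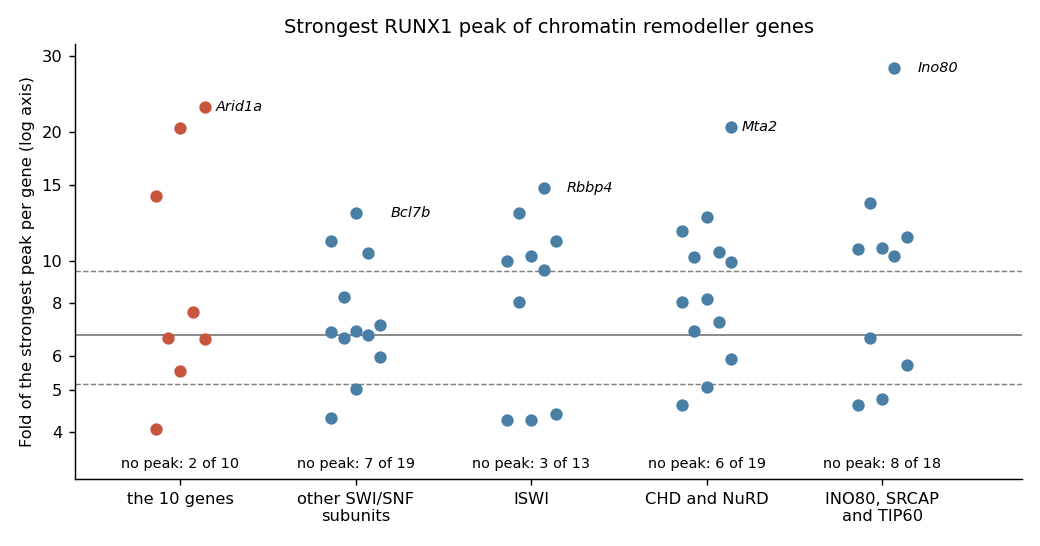
Fold of the strongest RUNX1 peak per gene (log axis) for the 10 SWI/SNF genes (red) and 4 further lists of remodeller genes (blue), each point a gene with a peak and the count below giving genes with none; lines are the median (6.71) and quartiles (5.18 and 9.46) of protein-coding genes with a peak. Arid1a (22.83) is exceeded in these lists by Ino80 (28.14) alone.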

How the data were processed

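RUNX1 ChIP-seq peaks came from 1 deposited list of 300 bp intervals on mm10, each with a fold and a p-value of the authors' peak caller. The authors mapped reads at unique positions, removed duplicates, merged the 2 RUNX1 replicates, called peaks, reset their width and filtered them on enrichment. Tools listed in the submitters' processing notes were HOMER 4.9, Bowtie 1.2, bedtools 2.24.0 and Picard 1.110. The deposited fold and p-value were used as given: which background the fold is over is not stated in the list, and read depth per peak is unknown, so no interval was put on a fold. The list's largest p-value was 2.44e-06 and 7 were given as 0.

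Gene positions came from RefSeq's curated set (26180 genes with 45756 transcripts) on GRCm38.p6, the assembly of mm10. A peak was assigned to the gene of the nearest TSS from its edge, with ties kept, and to any gene whose body it overlapped by at least 1 bp. Context was set by the midpoint, in the order promoter, exon, intron, upstream. Of the peaks, 10490 lay on assembled chromosomes, and motif and TSS shares refer to these. Motifs were searched on both strands in Python 3.11.15 with pysam 0.24.0, and exact binomial intervals came from scipy 1.17.1. These intervals cover counting error among peaks only. The search and assignment steps were tested on simulated data. Named genes were the 10 genes, other subunit genes with a peak, the strongest gene of each further list, genes with a TSS within 1 kb of a peak, and the 3 genes to either side of the strongest in rank, of which 1 is not reported here. Genes that merely illustrate a nearest peak (Gstt2, Cox14) or hold one (Mir762, Gm15860, Psma7), and subunit genes with no peak, were named after their values were seen. So were the genes met only with predicted transcripts (Gm38469, Gm52395 and Gm41408). The members and gene lists were chosen with earlier results of these data known, and no test was run on them. The alternatives tried were a higher fold or lower p-value, changed rules for assigning peaks, other gene models and other forms of the core.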

Additional observations from a re-analysis of the deposited data

How the results depend on the processing

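Which genes had a peak depended on the strength required. With a fold of at least 8, 3 genes (Arid1a, Arid2 and Smarcc2) and 4 peaks were left, of median fold 17.3, and 0 of them covered a TSS. All 4 lay above the upper quartile of all peaks (8.89), as did 24.8% of the whole list. With a caller p-value under 1e-20, 5 genes (Arid1a, Arid2, Pbrm1, Smarca4 and Smarcc2) and 6 peaks were left. How many of all genes and peaks pass either cutoff was not counted. Under the other rules for the nearest gene and the other gene models 8 genes had a peak, with 12 to 17 peaks. Peaks were lost at Arid2 alone: peaks 4 and 5 when a TSS within 10 kb was required, and peaks 1 and 2 when predicted transcripts were added, where they were nearer to Gm38469. Predicted transcripts raised the number of peaks covering a TSS from 1 to 4, by Arid1a peak 1, Arid1b peak 1 and Smarca2 peak 1. The share of all peaks covering a TSS was not counted with predicted transcripts. With them the Smarca2 peak also covered a TSS of Gm52395, so it was shared. Arid2 peak 5 was then nearest to Gm41408 and was kept because it lies in the body of Arid2. When only protein-coding genes competed, 3 distal peaks were gained, at Arid1b (13.33 and 10.58) and Arid1a (12.45). The share of peaks with a RUNX core ran from 14.3 to 50% over all alternatives. The lowest came from narrower forms of the core (2 of 14 peaks). The highest came from the stricter cutoffs, with 2 of 4 peaks by fold and 3 of 6 by p-value. The share of all peaks with a core was not counted at these cutoffs.

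The list limits what can be said: it holds no value per replicate, per input library or per cell type, and no peak under a fold of 4.01, so the error of a fold and weak binding at Smarcb1 and Smarcd1 were not examined. No paired analysis was possible because the peaks were called on merged replicates and no result comes from a test.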
